A study of Mus musculus with 8 samples.

Results

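The glycolysis genes are 30 genes chosen by name. They encode the glucose transporters, the enzymes from hexokinase to lactate dehydrogenase, the enzymes that set fructose-2,6-bisphosphate, the pyruvate dehydrogenase kinases and the lactate transporters. All 30 were found among the 53697 genes of the table, and 29 passed the filter on low counts; Pgam2 did not. RNA was sequenced from 8 libraries of tumor cells from 4 MMTV-PyMT mice on a C57BL/6 background, in which the MMTV promoter drives the polyoma middle T oncogene in mammary epithelium. Of these mice, 2 were PyMT-Dll1GFP (a GFP-IRES-CreERT2 knock-in at Dll1; GFP mice) and 2 were PyMT-Dll1mCh (a BAC-based mCherry reporter; mCh mice). Tumor cells were depleted of CD45, CD31 and Ter119 positive cells and sorted into Dll1+ and Dll1- cells by the reporter, so each mouse gave 1 library of each. All groups therefore carry the oncogene and a reporter, and the age of these mice is not given in the sources used here.

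Glycolysis splits glucose into pyruvate in the cytosol. Hexokinase traps glucose in the cell, phosphofructokinase is the main control point, and fructose-2,6-bisphosphate is its activator. Lactate dehydrogenase turns pyruvate into lactate, which leaves the cell through monocarboxylate transporters, while pyruvate dehydrogenase kinases hold pyruvate back from the mitochondria. Many steps have several isoenzymes from separate genes, and tumors often use glycolysis even where oxygen is present. Hypoxia-inducible factors are textbook activators of many of these genes.

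Dll1, the Notch ligand behind the sort, was at 7.61 and 13.7 CPM (TMM-normalized counts scaled to library size) in Dll1- cells of GFP mice and 34.7 and 50.3 in those of mCh mice. It was at 87.5 to 250 CPM in the 4 Dll1+ libraries. Epcam, an epithelial marker, was at 899 to 982 CPM in the Dll1- and at 1098 to 1240 CPM in the Dll1+ libraries. Ptprc, which encodes CD45, was at 2.88 to 12.7 CPM in the 8 libraries. Total counts ranged from 27301396 to 123907626, and the most deeply sequenced library was that of Dll1- cells of mCh mouse 1. With 4 mice, p-values for Dll1+ against Dll1- cells measure how the difference within a mouse varied between these animals. In the main fit for mCh against GFP mice, they measure the spread between mice of a group. There, both libraries of a mouse are treated as independent.

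Because the hypoxia-inducible factors bind a short core, ACGTG or GCGTG, this core was searched on both strands of the RefSeq promoter windows (250 bases before and 50 after a start site, GRCm38.p6). Of 29 members with a window, 25 (86.2%) held it in at least 1 window, against 12628 of 27025 genes (46.7%). The median G and C content was 60.7% in the windows of members and 52.7% in all windows, and the part of base composition in the difference was not tested. Slc2a3 has no entry. The 6 upstream stretches printed next belong to members that differed between Dll1+ and Dll1- cells. Capitals mark the core, which reads CACGT or CACGC where it lies on the other strand, and a run of CACGTG is a pair of overlapping cores. None of these bases lies in an annotated exon.
Aldoa, chr7:126799255-126799504, minus strand: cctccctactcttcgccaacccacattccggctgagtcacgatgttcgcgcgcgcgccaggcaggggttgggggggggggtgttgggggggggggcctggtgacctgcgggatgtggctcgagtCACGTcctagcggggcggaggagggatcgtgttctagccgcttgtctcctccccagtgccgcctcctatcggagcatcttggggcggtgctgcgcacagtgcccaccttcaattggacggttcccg
Pfkp, chr13:6648778-6649021, minus strand: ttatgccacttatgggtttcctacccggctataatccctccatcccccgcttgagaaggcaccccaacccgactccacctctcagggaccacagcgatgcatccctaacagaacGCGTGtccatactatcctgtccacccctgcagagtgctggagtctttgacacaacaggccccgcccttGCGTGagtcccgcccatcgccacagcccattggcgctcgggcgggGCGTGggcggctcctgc
Ldha, chr7:46846832-46847081, plus strand: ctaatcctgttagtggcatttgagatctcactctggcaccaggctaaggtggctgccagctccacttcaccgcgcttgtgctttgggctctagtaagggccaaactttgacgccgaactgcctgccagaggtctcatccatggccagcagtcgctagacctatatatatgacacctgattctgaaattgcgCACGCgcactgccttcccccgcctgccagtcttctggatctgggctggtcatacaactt
Ldha, upstream start, chr7:46845554-46845803, plus strand: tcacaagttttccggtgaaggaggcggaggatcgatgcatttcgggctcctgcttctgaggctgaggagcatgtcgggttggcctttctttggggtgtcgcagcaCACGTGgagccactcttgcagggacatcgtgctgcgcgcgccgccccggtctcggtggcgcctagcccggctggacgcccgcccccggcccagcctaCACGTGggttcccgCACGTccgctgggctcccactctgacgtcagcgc
Hk2, chr6:82774455-82774704, minus strand: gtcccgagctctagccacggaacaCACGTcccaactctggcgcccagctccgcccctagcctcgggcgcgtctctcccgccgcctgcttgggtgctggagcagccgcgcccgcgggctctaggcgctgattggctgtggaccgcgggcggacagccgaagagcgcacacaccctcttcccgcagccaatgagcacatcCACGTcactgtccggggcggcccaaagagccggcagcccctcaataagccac
Eno1, chr4:150236458-150236707, plus strand: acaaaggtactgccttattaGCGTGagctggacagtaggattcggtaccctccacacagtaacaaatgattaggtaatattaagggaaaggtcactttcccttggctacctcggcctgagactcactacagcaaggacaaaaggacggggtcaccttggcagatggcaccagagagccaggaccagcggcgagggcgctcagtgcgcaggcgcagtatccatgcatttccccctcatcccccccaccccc
Only stretches that held a core outside annotated exons were printed, so the cores seen here follow from that choice. Aldoc was searched in the same way, had no such core in the upstream bases before annotated exons and is not shown. Its 2 whole windows each held a core, so Aldoc is among the 25 members counted. No stretch of Eno3 was searched for printing. Those shown include members that rose and members that fell. Ldha alone was printed for more than 1 start site. The stretch before its upstream start held 5, the most of those shown, and the stretch nearer its principal start held 1. A match describes letters only, and no binding was measured.

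Levels of members can be compared with each other per kilobase of transcript. On that scale, as a mean over 8 libraries in CPM per kb, Aldoa was highest at 739 ± 218 (SD, n = 8 libraries). Ldha followed at 599 ± 123, Pkm at 490 ± 109, Eno1 at 382 ± 144 and Gapdh at 379 ± 153. Aldoa led in 6 of 8 libraries. This order rests on how reads were split between near-identical copies: with the counts of copies added, over the length of the gene itself, Gapdh was highest at 1147 ± 480 CPM per kb, ahead of Aldoa in 6 of 8 libraries, and Eno1 was at 601 ± 237, level with Ldha at 600 ± 124. As deposited, Eno1 and Gapdh lay within 1 SD of each other, as did Gpi1 (129 ± 31.5), Pfkl (124 ± 16.6) and Pgk1 (122 ± 50.4). One transporter, one hexokinase and one phosphofructokinase gene led its kind: Slc2a1 at 81.8 ± 19.3 against Slc2a3 at 0.717 ± 0.586, Hk1 at 78.1 ± 11.4 against Hk2 at 5.65 ± 1.66, and Pfkl at 124 ± 16.6 against Pfkp at 25.6 ± 8.96 and Pfkm at 22.4 ± 4.62. The muscle-type mutase Pgam2 had 0 to 11 counts per library. Skeletal muscle markers (6 genes) summed to 1.26 to 8.39 CPM.

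**Figure D1:**
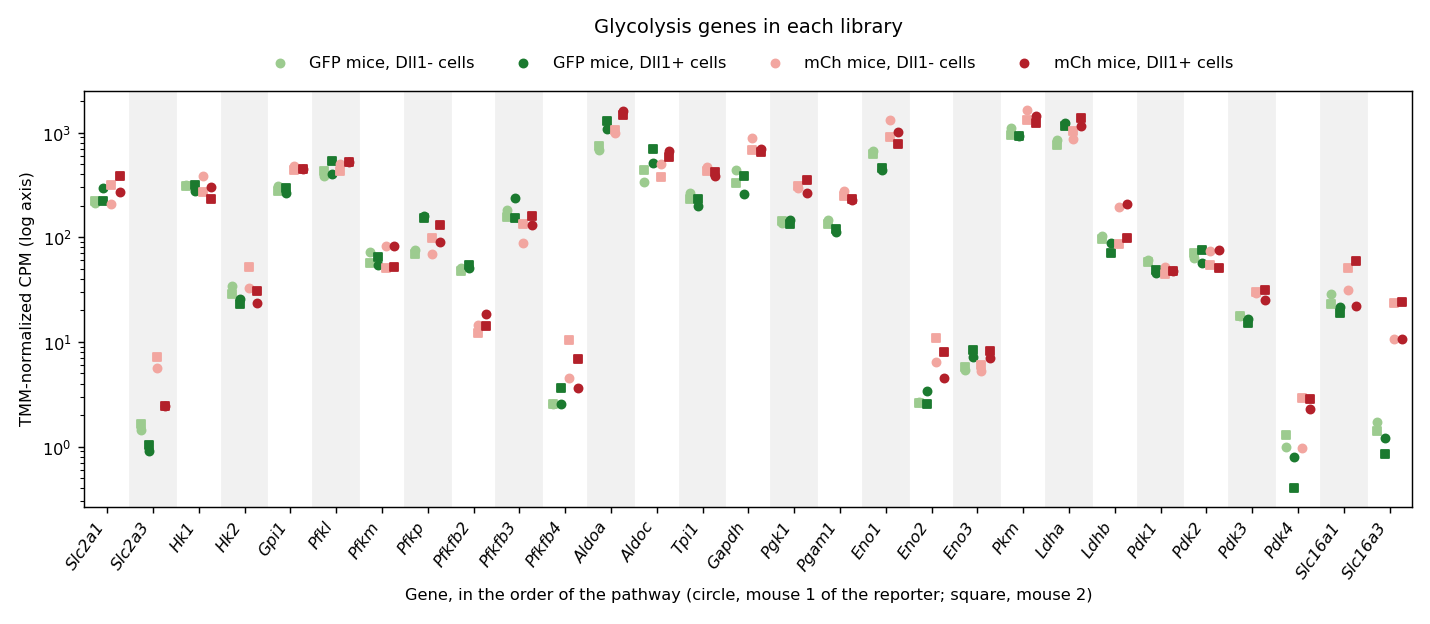
TMM-normalized CPM (log axis) of the 29 tested members in each of the 8 libraries, by reporter and Dll1 status. Levels run from below 1 CPM for Pdk4 to above 1000 for Aldoa, Ldha and Pkm, and Slc16a3 and Slc2a3 lie higher in all mCh libraries than in all GFP libraries.

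Dll1+ and Dll1- cells of the same mouse differed in some members of the pathway and in both directions. In Dll1+ cells the aldolases Aldoa and Aldoc, the platelet-type phosphofructokinase Pfkp, the lactate dehydrogenase Ldha and the muscle-type enolase Eno3 rose by log2 fold changes of 0.45 to 0.75. The transporter Slc2a3, the hexokinase Hk2 and the enolase Eno1 fell. So 8 of 29 members passed an adjusted p of 0.05 (27.6%), 5 higher and 3 lower, where 14% of all 18322 genes did. The median log2 fold change of the 29 members was -0.10, against -0.0007 for all genes, and 21 members did not pass. The mean log2 level over members differed between Dll1+ and Dll1- cells by -0.058 and 0.0075 in the GFP mice and by -0.013 and 0.0022 in the mCh mice.

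Glucose uptake and trapping. Slc2a3 encodes the high-affinity transporter GLUT3. It was at 1.43 and 1.63 CPM in Dll1- cells of GFP mice 1 and 2 and at 0.907 and 1.03 in their Dll1+ cells. The mCh mice 1 and 2 had 5.61 and 7.23 CPM in Dll1- and 2.44 and 2.45 in Dll1+ cells. It was lower in Dll1+ cells of each mouse, but the Dll1+ cells of mCh mice lay above the Dll1- cells of GFP mice. Its log2 fold change was -1.06 ± 0.22 (SE, 4 mice; edgeR adjusted p = 0.0318). Slc2a1, encoding the widely expressed GLUT1, did not pass in edgeR (0.29, adjusted p = 0.0836) and was called in DESeq2. Its level was higher in Dll1+ cells by 0.28 to 0.47 on the log2 scale in 3 mice. In GFP mouse 2 the difference was 0.0125, close to none.

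Hk2 encodes the inducible hexokinase found in many tumors. It was at 34.0 and 28.5 CPM in Dll1- cells of GFP mice 1 and 2 and at 25.6 and 23.1 in their Dll1+ cells. For mCh mice 1 and 2 the values were 32.9 and 51.4 CPM in Dll1- and 23.5 and 30.4 in Dll1+ cells. Each mouse had less in Dll1+ cells, and the groups overlapped through the 30.4 CPM of mCh mouse 2. The log2 fold change was -0.49 ± 0.087 (edgeR adjusted p = 0.0212). Hk1, the main hexokinase here, did not pass (-0.18, adjusted p = 0.195).

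Phosphofructokinase and aldolase. Pfkp was at 75.9 and 69.5 CPM in Dll1- cells of GFP mice 1 and 2 and at 159 and 154 in their Dll1+ cells. In mCh mice 1 and 2 it was at 69.4 and 99.1 CPM in Dll1- and at 90.5 and 132 in Dll1+ cells. All mice had more in Dll1+ cells, and the Dll1- cells of mCh mouse 2 lay above the Dll1+ cells of mCh mouse 1. The log2 fold change was 0.75 ± 0.16 (edgeR adjusted p = 0.0379). Pfkl and Pfkm had log2 fold changes of 0.19 and -0.05 and did not pass in edgeR, nor did the bifunctional enzymes Pfkfb2, Pfkfb3 and Pfkfb4, at 0.19, 0.30 and -0.11. DESeq2 called Pfkl and Pfkfb3 higher.

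Aldoa, the aldolase of muscle and most tissues, was at 677 and 744 CPM in Dll1- cells of GFP mice 1 and 2 and at 1091 and 1288 in their Dll1+ cells. The mCh mice 1 and 2 had 983 and 1054 CPM in Dll1- and 1611 and 1481 in Dll1+ cells. The 4 Dll1+ libraries lay above the 4 Dll1- libraries, and the log2 fold change was 0.67 ± 0.084 (edgeR adjusted p = 0.00967). Aldoc, the brain-type aldolase, was at 337 and 435 CPM in Dll1- and at 513 and 698 in Dll1+ cells of GFP mice 1 and 2. For mCh mice 1 and 2 the values were 498 and 373 CPM in Dll1- and 672 and 586 in Dll1+ cells. Its groups did not overlap either, and the log2 fold change was 0.59 ± 0.074 (edgeR adjusted p = 0.00961). The share of all genes whose Dll1+ and Dll1- libraries separate was not counted, here and for Eno3 and Ldha below.

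From triose to pyruvate. None of Tpi1, Gapdh, Pgk1, Pgam1, Eno2 and Pkm passed in edgeR, with log2 fold changes of -0.24 to 0.01, and DESeq2 called Pgam1 lower. The enolases, which make phosphoenolpyruvate, went in different directions. Eno1, the ubiquitous form, was at 662 and 625 CPM in Dll1- and at 440 and 463 in Dll1+ cells of GFP mice 1 and 2. In mCh mice 1 and 2 it was at 1305 and 915 CPM in Dll1- and at 1007 and 777 in Dll1+ cells. It was lower in Dll1+ cells of each mouse, with overlap between the groups across reporters, and its log2 fold change was -0.41 ± 0.084 (edgeR adjusted p = 0.0321). Eno3 was at 5.39 and 5.72 CPM in Dll1- and at 7.18 and 8.30 in Dll1+ cells of GFP mice 1 and 2. The mCh mice 1 and 2 had 5.26 and 6.08 CPM in Dll1- and 7.08 and 8.19 in Dll1+ cells. The groups did not overlap, and the log2 fold change was 0.45 ± 0.11 (edgeR adjusted p = 0.0441), at a level far below that of Eno1.

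Lactate and the fate of pyruvate. Ldha was at 844 and 759 CPM in Dll1- and at 1243 and 1156 in Dll1+ cells of GFP mice 1 and 2. For mCh mice 1 and 2 the values were 874 and 1038 CPM in Dll1- and 1166 and 1385 in Dll1+ cells. All 4 Dll1+ libraries lay above all 4 Dll1- libraries, and the log2 fold change was 0.50 ± 0.078 (edgeR adjusted p = 0.0156). Ldhb, the heart-type subunit, had -0.08, the kinases Pdk1, Pdk2, Pdk3 and Pdk4 had -0.18, -0.04, -0.12 and -0.10, and the transporters Slc16a1 and Slc16a3 had -0.25 and -0.24. None of these 7 passed.

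These calls depended on the mice in the fit. A fit with a mouse left out has fewer libraries, and the share of all genes called in it is not given here. With GFP mouse 1 left out no member passed in edgeR (9 had an unadjusted p under 0.05), without GFP mouse 2 there were 3, and without mCh mouse 1 there was 1 (Aldoc). Without mCh mouse 2 there were 7, where Slc2a3 and Eno3 were lost and Slc16a1 was gained. DESeq2 called 12 over the 4 mice, the 8 and Slc2a1, Pfkl, Pfkfb3 and Pgam1. It also called more of all genes than edgeR, with the numbers given in the last section. Without the mouse block 4 of the 8 passed, and Hk2, Aldoc, Eno1 and Eno3 did not. The cycling markers Ccnb1, Mcm5, Top2a, Mki67 and Pcna were lower in Dll1+ cells (5 of 5), summing to 474 to 488 CPM against 213 to 218 in GFP mice and 588 to 718 against 342 to 379 in mCh mice. Basal markers (2 of 5 called higher) summed to 124 to 153 CPM against 201 to 364 in GFP mice and 275 to 590 against 1131 to 1429 in mCh mice. Hormone-sensing markers (2 of 3 called lower) summed to 23.4 to 55.6 CPM in Dll1- and 13.6 to 19.6 in Dll1+ cells. Of 4 epithelial markers, 0 were called in edgeR, and DESeq2 called 3 higher and 1 lower. Their median log2 fold change was 0.30. Fibroblast, immune, endothelial and erythroid markers had median log2 fold changes of -1.08, -0.58, -0.69 and -0.89 over the 4 mice, with 1 erythroid marker called lower in edgeR. The part of all these markers in the results was not tested. In these bulk samples, fewer cells of a type and less RNA per cell cannot be told apart.

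**Figure D2:**
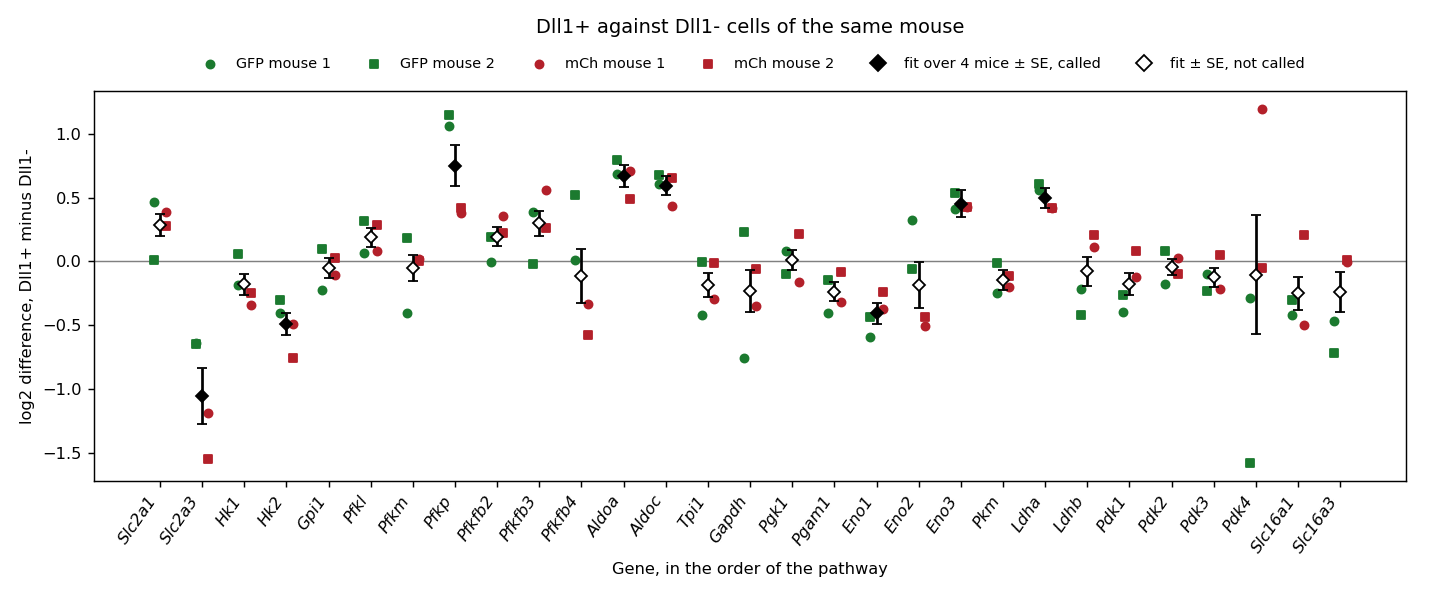
Log2 difference of each member between Dll1+ and Dll1- cells of each of 4 mice, with the fitted log2 fold change and its SE (filled where the adjusted p is under 0.05). The points of Aldoa, Aldoc, Eno3 and Ldha sit between 0.41 and 0.79 in all 4 mice, and those of Slc2a3, Hk2 and Eno1 lie below 0.

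Within a library, the ratio of 2 isoenzymes does not depend on scaling. The log2 ratio of Slc2a1 to Slc2a3 was higher in Dll1+ cells by 1.31 ± 0.52 (SD, n = 4 mice), and that of Ldha to Ldhb by 0.58 ± 0.39, each in 4 of 4 mice. The ratios of Hk2 to Hk1, Pfkl to Pfkp and Pfkm to Pfkp differed by -0.31 ± 0.16, -0.56 ± 0.42 and -0.80 ± 0.52, lower in 4 of 4 mice. The exact two-sided sign-flip permutation p was 0.125 for each, the smallest that 4 mice allow, and 0.25 after adjustment over the 10 pairs compared. The other 5 pairs, of Pfkfb3 to Pfkfb4, Aldoa to Aldoc, Eno1 to Eno2, Pdk1 to Pdk4 and Slc16a3 to Slc16a1, had exact permutation p of 0.375 to 0.875.

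By reporter, the same fit called 5 members in GFP mice and 5 in mCh mice (17.2% each), where 9.13% and 11.8% of all genes passed. In GFP mice Pfkp (1.11), Aldoa (0.74), Aldoc (0.64) and Ldha (0.58) rose and Eno1 (-0.51) fell, as log2 fold changes with edgeR adjusted p of 0.0027 to 0.0375. In mCh mice Aldoa (0.60), Aldoc (0.54) and Pfkp (0.40) rose and Slc2a3 (-1.38) and Hk2 (-0.62) fell, with edgeR adjusted p of 0.018 to 0.0277. In the same mCh mice, 5 of 6 tested immune, 3 of 6 fibroblast, 4 of 4 erythroid and 1 of 4 endothelial markers were lower in Dll1+ cells, with median log2 fold changes of -1.17, -2.14, -1.40 and -1.38. In GFP mice the medians of the same lists were 0.17, -0.11, -0.21 and 0.05. The part of these markers in the result was not tested. The difference between the 2 effects was tested directly. It called 0 members in edgeR (0.071% of all genes). At an unadjusted p under 0.05 there were 5 of 29 members, where 2420 of all 18322 genes were under it. DESeq2 called 1 member (Pfkp), and its number over all genes is given in the last section. Pfkp had the lowest p, with an effect 0.71 ± 0.10 greater on the log2 scale in GFP mice and an edgeR adjusted p of 0.0799. With only the libraries of mCh mice in the fit, no member passed there (11 had an unadjusted p under 0.05). Leaving out either GFP mouse gave 0 called members in GFP mice and leaving out mCh mouse 2 gave 0 in mCh mice.

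Larger differences lay between the mice of the 2 reporters. In Dll1- cells 14 of 29 members differed between mCh and GFP mice (48.3%), 13 higher and 1 lower in mCh mice, where 36.6% of all genes differed. In Dll1+ cells 11 differed (37.9%), 10 higher and 1 lower, where 30.6% of all genes did. The median log2 fold change of members was 0.52 in Dll1- and 0.51 in Dll1+ cells, against 0.01 and 0.07 over all genes. The mean log2 CPM over members was 6.01 to 6.07 in the 4 GFP libraries and 6.52 to 6.64 in the 4 mCh libraries. Reporter, allele type, mouse and any difference in handling cannot be told apart, since each mouse has 1 reporter.

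Slc16a3, which encodes the lactate exporter MCT4, had the largest difference. It was at 1.71 and 1.42 CPM in Dll1- and at 1.22 and 0.850 in Dll1+ cells of GFP mice 1 and 2. In mCh mice 1 and 2 it was at 10.6 and 23.6 CPM in Dll1- and at 10.6 and 23.9 in Dll1+ cells. No mCh library came near a GFP library, and the log2 fold changes of mCh over GFP were 3.44 ± 0.56 (edgeR adjusted p = 0.00521) in Dll1- and 4.07 ± 0.57 (0.00592) in Dll1+ cells. Slc2a3, with the levels given before, was higher in mCh mice by 2.06 ± 0.25 (edgeR adjusted p = 0.0023) in Dll1- and 1.33 ± 0.25 (0.0112) in Dll1+ cells.

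Pfkfb2, one of the genes for fructose-2,6-bisphosphate, went the other way. It was at 50.6 and 47.1 CPM in Dll1- and at 50.5 and 53.9 in Dll1+ cells of GFP mice 1 and 2. The mCh mice 1 and 2 had 14.5 and 12.3 CPM in Dll1- and 18.6 and 14.3 in Dll1+ cells. It was the only member whose mCh libraries all lay below all GFP libraries, with log2 fold changes of -1.87 ± 0.16 and -1.66 ± 0.16 (edgeR adjusted p = 0.00111 and 0.00311). Pfkfb4, a hypoxia-inducible relative, was at 2.53 to 3.65 CPM in the GFP libraries. It was at 4.56 and 10.3 CPM in Dll1- and at 3.62 and 6.91 in Dll1+ cells of mCh mice 1 and 2, and was called higher in Dll1- cells alone (1.54 ± 0.48, edgeR adjusted p = 0.0446). The call was lost with the correlation within a mouse in the model.

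Of the enzymes from glucose-6-phosphate to pyruvate, Gpi1, Tpi1, Gapdh, Pgk1, Pgam1 and Eno1 were higher in mCh mice in both cell groups (edgeR), while Pfkl, Pfkm, Pfkp, Aldoc and Eno3 passed in neither. Among these last, Pfkp had log2 fold changes of 0.21 in Dll1- and -0.49 in Dll1+ cells. Gpi1, the isomerase after hexokinase, was at 311 and 279 CPM in Dll1- and 265 and 298 in Dll1+ cells of GFP mice 1 and 2, against 483 and 439 and against 450 and 448 in mCh mice 1 and 2. Tpi1, which interconverts the trioses, was at 266 and 231 CPM in Dll1- and 199 and 230 in Dll1+ cells of GFP mice, against 466 and 425 and against 381 and 420 in mCh mice. Gapdh, the oxidative step, was at 439 and 327 CPM in Dll1- and 260 and 383 in Dll1+ cells of GFP mice, against 881 and 678 and against 690 and 652 in mCh mice. The lowest mCh library lay above the highest GFP library for each of these genes. Pgk1, which makes the first ATP of the pathway, was at 138 and 143 CPM in Dll1- and 146 and 134 in Dll1+ cells of GFP mice 1 and 2. For mCh mice 1 and 2 the values were 297 and 306 CPM in Dll1- and 265 and 355 in Dll1+ cells. For these 4 genes the log2 fold changes were 0.65, 0.84, 1.03 and 1.10 in Dll1- and 0.67, 0.90, 1.06 and 1.15 in Dll1+ cells. Pgam1 and Eno1 were also called higher in both, at 0.91 and 0.79 and at 0.98 and 0.98. All 6 were above every GFP library in every mCh library. The share of all genes that separate in this way was not counted. Of all genes, 36.6% in Dll1- and 30.6% in Dll1+ cells were called between the reporters.

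Of the enolase and kinase genes at low level, Eno2, the neuronal form, was at 2.53 to 3.38 CPM in the GFP libraries. It was at 6.49 and 10.9 CPM in Dll1- and 4.56 and 8.04 in Dll1+ cells of mCh mice 1 and 2, and was called in Dll1- cells (1.70 ± 0.38, edgeR adjusted p = 0.0138). Pdk4 was at 0.403 to 1.28 CPM in the GFP libraries. In mCh mice 1 and 2 it was at 0.969 and 2.94 CPM in Dll1- and 2.27 and 2.84 in Dll1+ cells. It was called in Dll1+ cells (2.11 ± 0.60, edgeR adjusted p = 0.0384), and not with the correlation within a mouse in the model. Pdk3, another pyruvate dehydrogenase kinase, was between 15.1 and 17.8 CPM in the 4 libraries of GFP mice and between 25.4 and 31.0 CPM in the 4 libraries of mCh mice. It was called in Dll1- and in Dll1+ cells, at log2 fold changes of 0.74 and 0.83, and Aldoa and Pkm were called in Dll1- cells, at 0.52 and 0.54. In Dll1+ cells Aldoa, Pkm and Eno2 were not called in edgeR and were in DESeq2. The other 14 members with a test, including Slc2a1, both hexokinases, the 3 phosphofructokinases and Ldha, passed in neither.

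Markers of other cell types also differed between reporters. Fibroblast markers (6 genes) summed to 984 to 1218 CPM in the GFP libraries, 7426 to 21349 in Dll1- and 2978 to 3231 in Dll1+ cells of mCh mice. Immune markers (7 genes) summed to 61.5 to 82.4, 325 to 361 and 147 to 164 CPM, and endothelial markers (4 genes) to 33.6 to 37.4, 104 to 243 and 60.0 to 62.2. Their part in the differences between reporters was not tested.

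**Figure D3:**
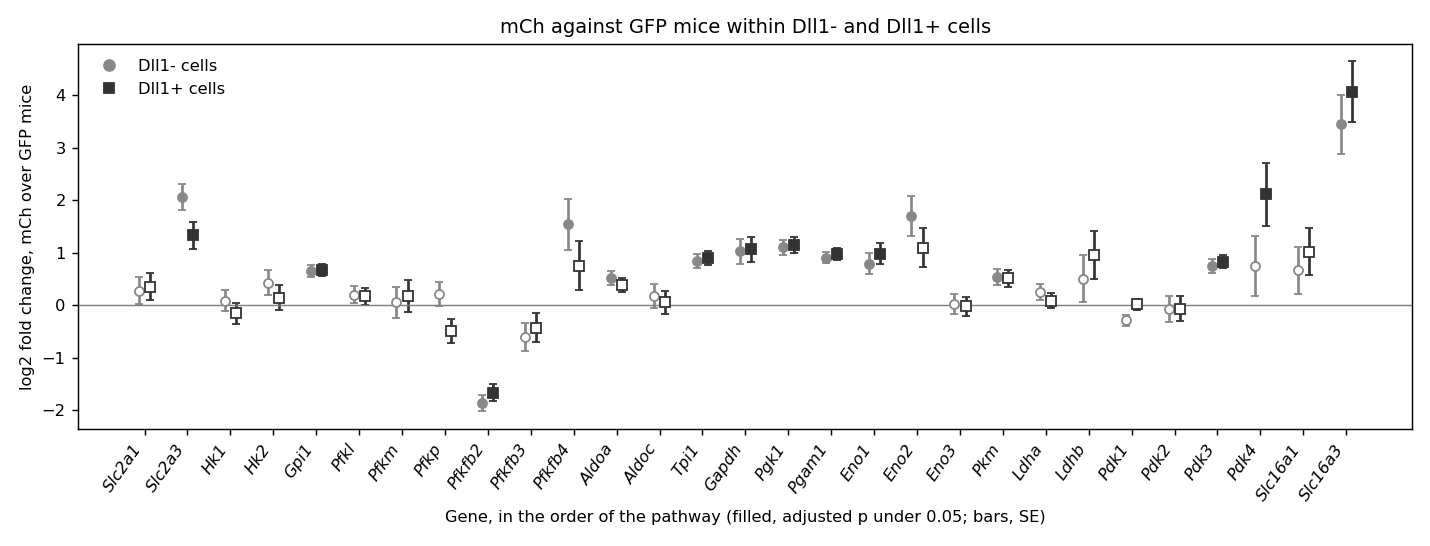
Log2 fold change of mCh over GFP mice for the 29 tested members, in Dll1- cells (circles) and Dll1+ cells (squares), with SE bars and filled symbols where the adjusted p is under 0.05. Slc16a3 has the highest values, 3.44 and 4.07, and Pfkfb2 the lowest, -1.87 and -1.66.

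Some members share most of their sequence with copies elsewhere in the genome, and the counting could split reads between them. Copies of Gapdh (88 genes) held 60.8% to 69.7% of the counts of gene plus copies. Gm13394 alone had 310128 counts over the 8 libraries, against 258858 for Gapdh. Copies of Eno1 held 33.1% to 38.5%, those of Pgk1 9.53% to 26.2%, that of Pgam1 8.88% to 19.0% and that of Ldhb 7.03% to 8.37%. Levels of these 5 genes are therefore uncertain. With members and copies summed, Eno1 still fell in Dll1+ cells (-0.42 ± 0.098, edgeR adjusted p = 0.0437), and Gapdh still rose in mCh mice, by 1.15 in both Dll1- and Dll1+ cells.

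**Figure D4:**
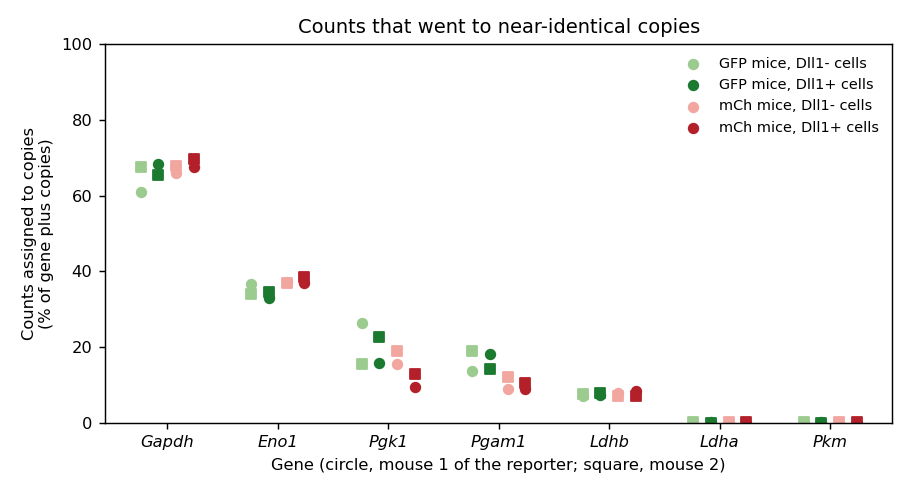
Percent of the counts of gene plus near-identical copies that were assigned to the copies, for 7 members in each of 8 libraries. Gapdh sits between 60.8 and 69.7 in all libraries, and Ldha and Pkm lie near 0.

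Around glycolysis, other pathways were compared in Dll1+ against Dll1- cells over the 4 mice, with the 14% of all genes called as background. Of 18 tested further genes of glycolysis, 2 rose (Ldhd 0.79, Galm 0.34, as log2 fold changes) and 3 fell, among them Bpgm (-0.47) and Pgm2 (-0.37). Of 14 genes of gluconeogenesis and glycogen, 1 rose (Ugp2, 0.29) and 4 fell, among them Fbp2 (-1.08) and Pck2 (-0.37).

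The serine branch takes 3-phosphoglycerate out of glycolysis. With the hexosamine branch, 5 of 10 genes fell and 0 rose in edgeR (0 at an unadjusted p under 0.05, 0 in DESeq2), and all 5 belong to serine and one-carbon metabolism: Psat1 (-1.08 ± 0.12, edgeR adjusted p = 0.00789), Phgdh (-1.08 ± 0.19, 0.0269), Shmt1 (-0.59), Shmt2 (-0.41) and Psph (-0.36). In the pentose phosphate pathway, which makes NADPH and ribose, G6pdx (-0.44), Taldo1 (-0.39) and Pgd (-0.25) fell, and 0 of 8 rose in edgeR (0 at an unadjusted p under 0.05, 0 in DESeq2). Of 9 genes for the entry of pyruvate into mitochondria, Pdhx (-0.41) and Dlat (-0.24) fell and 0 rose in edgeR (1 at an unadjusted p under 0.05, 1 in DESeq2). In the tricarboxylic acid cycle 7 of 19 fell, among them Me2 (-0.63), Idh3a (-0.33) and Fh1 (-0.34), and Me1 (0.39) rose. Median log2 fold changes were -0.39 for the serine and hexosamine list, -0.19 for the pentose phosphate list and -0.20 for the cycle, against -0.0007 for all genes.

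Of 23 tested hypoxia targets outside glycolysis, 8 rose and 1 fell, with a median log2 fold change of 0.26. Zfp395 (0.70 ± 0.070, edgeR adjusted p = 0.00645), Car12, a carbonic anhydrase (0.98 ± 0.11, 0.00789), Ppp1r3c, a glycogen-targeting subunit (1.09 ± 0.13, 0.00914), and Ddit4, an inhibitor of mTORC1 (0.62 ± 0.096, 0.0152), had the lowest p. Stc2 fell (-1.93). None of 11 tested hypoxia-inducible factors and regulators passed in edgeR, Hif1a among them at -0.28 (adjusted p = 0.103). At an unadjusted p under 0.05, 1 was higher and 2 were lower, where 5936 of all 18322 genes were under it, and DESeq2 called 1 lower. By reporter, edgeR called 1 higher and 1 lower in GFP mice, and 0 higher and 2 lower in mCh mice. Of all genes, 9.13% and 11.8% passed in these comparisons.

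**Figure D5:**
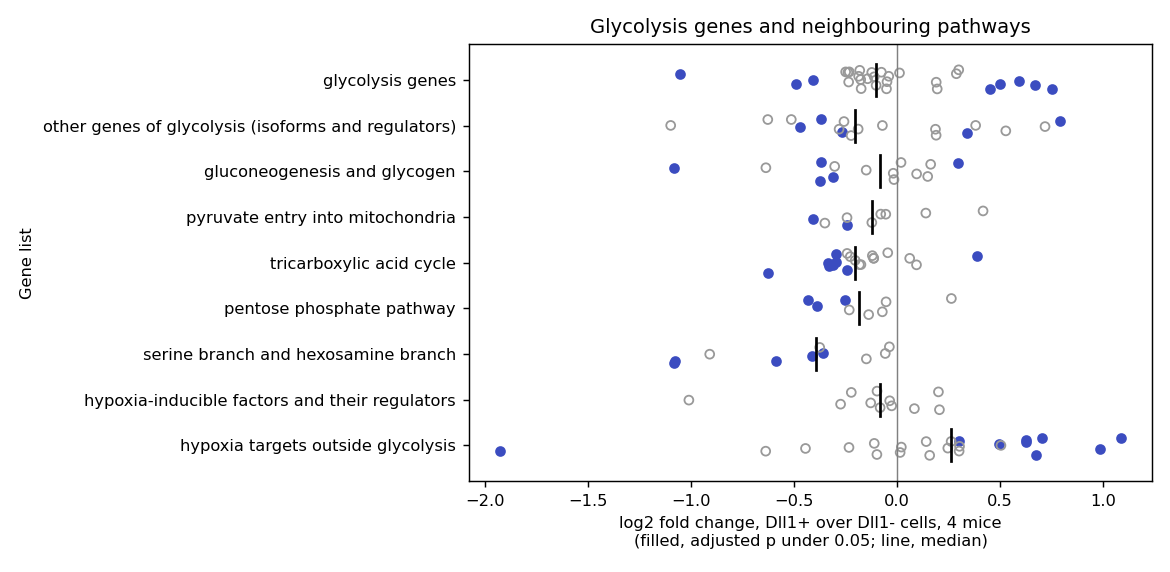
Log2 fold change of each tested gene in Dll1+ over Dll1- cells of 4 mice, for the glycolysis genes and 8 neighbouring lists, filled where the adjusted p is under 0.05, with a line at each list's median. The median lies at -0.10 for the glycolysis genes, -0.39 for the serine and hexosamine list and 0.26 for the hypoxia targets.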

How the data were processed

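Lineage-negative mammary tumor cells were sorted by reporter fluorescence and their RNA sequenced from a stranded kit. The authors mapped reads with salmon to GENCODE transcripts (GRCm38.p6 per the labels; salmon's version is not given in the sources used here) and summed them to genes with tximport. The deposited values are estimated counts per gene, written as whole numbers and not normalized. Total counts were 27301396 to 123907626 per library, so that a floor of 3 counts, which reflects counting error alone, lies at 0.0240 to 0.105 CPM.

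Genes were tested in R 4.3.3 with edgeR 4.0.16 (TMM, filterByExpr on Dll1 status, robust quasi-likelihood F test, two-sided), and p-values were adjusted by Benjamini-Hochberg over all 18322 genes tested, with a threshold of 0.05. Dll1+ against Dll1- was fitted with the mouse as a block. The pairs come from the mouse ID in the labels; deviations of paired libraries correlated at -0.047 in GFP and 0.554 in mCh mice. The mCh against GFP comparison was fitted on 4 groups without a mouse term, since each mouse has 1 reporter. CPM are TMM-normalized counts scaled to library size; log2 values used a prior count of 2. Gene models came from GENCODE M21. Copies of a member were genes with a blastn 2.17.0 match of at least 95% identity over 300 bases. Alternatives were RLE size factors, DESeq2 1.42.0, other count filters, no block, limma 3.58.1 voom with the correlation within a mouse, each mouse or library left out, and members summed with their copies. That last alternative was planned for the 4-mouse comparison and chosen after seeing the data for the others. Scripts were tested on simulated data.

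All 30 members are accounted for. Values in every library are given for members called over 4 mice, and for up to 3 members per step called otherwise, largest change first; from the other lists, at most 4 genes with the lowest p are named, and other genes named were chosen after their values were seen. The members and lists were chosen with earlier results of these data known.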

Additional observations from a re-analysis of the deposited data

Results flagged for a closer look

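Of 87 sets of 4 values over the members, 4 held a value far from the other 3, by a gap above Dixon's 95% critical value as a share of the whole range; chance alone marks about 1 in 20 such sets. Slc2a1 in Dll1- cells had a gap of 0.874 of the range, through mCh mouse 2 at 317 CPM against 209 to 220 CPM in the others. Pfkl in Dll1+ cells had a gap of 0.931, through GFP mouse 1 at 400 CPM against 520 to 530. Slc16a1 in Dll1+ cells had a gap of 0.848, through mCh mouse 2 at 59.0 CPM against 18.7 to 22.3. The Eno3 difference between Dll1+ and Dll1- cells had a gap of 0.875, through GFP mouse 2 at 0.53 on the log2 scale against 0.41 to 0.43 in the other 3 mice.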

How the results depend on the processing

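Over the 4 mice, 8 members passed; DESeq2 called 12, adding Slc2a1, Pfkl, Pfkfb3 and Pgam1, without the replicate block 4 passed, and with a mouse left out 0 to 7. In GFP mice (5 members) no replicate block gave 0 (9 with an unadjusted p under 0.05) and leaving out a mouse 0 to 8. In mCh mice (5 members) DESeq2 gave 8, no replicate block 0 (5 at an unadjusted p under 0.05), the mCh libraries fitted alone 0, and leaving out a mouse 0 to 3. The difference between reporters called 0 members, and 1 (Pfkp) with DESeq2, 1 with no filter on low counts and 0 to 1 with a mouse left out. Between reporters, leaving out a library gave 7 to 13 members in Dll1- cells, against 14, and 6 to 11 in Dll1+ cells, against 11. Over all genes DESeq2 called 4362 against 2568 over the 4 mice and 540 against 13 for the difference between reporters. For fits with a mouse or library left out, or without the block, the number of all genes called is not given here. Without the filter on low counts, Pfkp and Eno3 no longer passed over the 4 mice.

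Among members that did not pass over the 4 mice, 8 changes of sign came from leaving out a mouse. The log2 fold changes then ranged over -0.10 to 0.009 for Gpi1, -0.12 to 0.071 for Pfkm, -0.31 to 0.052 for Pfkfb4, -0.062 to 0.069 for Pgk1, -0.17 to 0.040 for Ldhb, -0.079 to 0.0065 for Pdk2 and -0.62 to 0.35 for Pdk4. Pgk1 also changed sign with copies summed, to -0.055. No called member changed sign under any alternative run. A lone mouse of a reporter left in a fit is assumed to vary like the others. Counts limit Pgam2, at 0 to 11 per library, and 2 mice per reporter limit the test of the difference.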
